A study of Mus musculus with 12 samples.

Results

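The 10 genes described here encode parts of the machinery that shows peptides to T cells: H2-K1, H2-D1, B2m, Tap1, Tap2, Psmb8 and Psmb9 of the class I pathway, and H2-Aa, H2-Ab1 and Cd74 of the class II pathway. They were picked by symbol, as a pathway, with earlier results of these data known, and all 10 were found among the 24147 gene entries of the deposited count files. All 10 also passed the filter on low counts that left 14560 genes for testing.

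The libraries were made from the lens capsule with its attached lens epithelial cells (LECs) of adult mice 2 months old, after the fiber cells of the lens had been removed as in cataract surgery. There were 4 groups of 3 libraries. FNcKO mice, in which Fn1 (fibronectin) is conditionally knocked out on a mixed C57BL/6, 129 and FVB/N background, were sampled at 48 h and at 0 h after surgery, and wild type (WT) C57BL/6 mice were sampled at the same times. Every group, 0 h included, had undergone surgery, so 0 h is not an unoperated lens. Genotype and strain background coincide, so neither can be told apart from the other in any comparison of FNcKO with WT. The labels give neither the Cre line that deletes Fn1, nor the haplotype of the H2 locus in the FNcKO mice, nor the number of lenses per library.

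Class I molecules are a heavy chain, here H2-K1 or H2-D1, bound to beta-2 microglobulin (B2m). They carry peptides cut by the proteasome and pumped into the endoplasmic reticulum by the Tap1-Tap2 transporter, and nearly all nucleated cells make them. Psmb8 and Psmb9 are catalytic subunits that replace constitutive ones in the immunoproteasome, typically under interferon. Class II molecules, here the alpha chain H2-Aa with the beta chain H2-Ab1, are escorted by the invariant chain Cd74 and are made mainly by macrophages, dendritic cells and B cells. The lens has no blood vessels of its own and normally holds few such cells.

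The promoters of the class I and class II genes are shown because their known shared boxes connect genes of both pathways. RefSeq windows on GRCm38.p6 (the mm10 assembly), from 250 bases before to 50 bases after the gene start, were at hand for 7 members and not for Tap2, H2-Ab1 and Cd74. The windows below run 5′ to 3′ on the gene's own strand. H2-K1 lies at chr17:34000298-34000597 (minus strand), H2-D1 at chr17:35262844-35263143 (plus), B2m at chr2:122147437-122147736 (plus), H2-Aa at chr17:34287774-34288073 (minus) and Tap1 at chr17:34187306-34187605 (plus). Capitals mark matches to the motifs described after the sequences; the Tap1 window, shown for contrast, had none.
H2-K1: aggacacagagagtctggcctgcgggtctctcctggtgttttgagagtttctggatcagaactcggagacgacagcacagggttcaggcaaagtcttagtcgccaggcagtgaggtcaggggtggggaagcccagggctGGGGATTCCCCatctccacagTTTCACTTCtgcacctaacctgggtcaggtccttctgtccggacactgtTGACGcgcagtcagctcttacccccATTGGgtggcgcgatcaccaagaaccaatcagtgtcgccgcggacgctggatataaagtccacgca
H2-D1: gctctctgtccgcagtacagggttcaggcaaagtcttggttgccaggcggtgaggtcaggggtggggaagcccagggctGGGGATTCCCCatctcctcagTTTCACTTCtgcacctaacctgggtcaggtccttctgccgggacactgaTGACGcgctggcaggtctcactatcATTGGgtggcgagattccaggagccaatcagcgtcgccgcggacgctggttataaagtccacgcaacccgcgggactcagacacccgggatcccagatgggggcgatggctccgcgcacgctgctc
B2m: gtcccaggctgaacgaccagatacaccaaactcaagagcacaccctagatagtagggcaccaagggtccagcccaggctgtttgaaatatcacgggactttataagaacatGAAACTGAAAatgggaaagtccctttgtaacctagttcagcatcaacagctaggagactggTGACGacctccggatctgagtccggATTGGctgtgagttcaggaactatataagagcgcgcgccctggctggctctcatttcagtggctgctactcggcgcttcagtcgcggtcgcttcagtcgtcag
H2-Aa: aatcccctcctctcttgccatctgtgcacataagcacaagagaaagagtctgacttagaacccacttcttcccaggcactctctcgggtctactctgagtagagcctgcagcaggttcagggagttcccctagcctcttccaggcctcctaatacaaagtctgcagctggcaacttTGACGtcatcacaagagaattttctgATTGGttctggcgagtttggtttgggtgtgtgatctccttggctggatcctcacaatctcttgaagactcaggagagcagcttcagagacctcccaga
Tap1: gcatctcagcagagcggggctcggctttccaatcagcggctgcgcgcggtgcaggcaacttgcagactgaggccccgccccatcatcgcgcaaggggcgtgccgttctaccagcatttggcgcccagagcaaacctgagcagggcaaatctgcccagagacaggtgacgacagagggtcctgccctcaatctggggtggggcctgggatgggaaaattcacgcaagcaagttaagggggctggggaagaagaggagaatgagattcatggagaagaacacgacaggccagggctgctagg

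In all, 4 motifs were searched on both strands, each a pair of short boxes on 1 strand, and they were chosen after these sequences had been seen. The first was GGGGA followed after 1 base by TCCCC, the outline of an NF-kappaB site. It occurred in H2-K1 and H2-D1 and in 0.0487% of the 32851 windows of the RefSeq table. The next pair of motifs, GAA or GAAA followed after 2 bases by GAAA, are spacings of an interferon response element. The shorter one occurred in H2-K1 and H2-D1, on the strand opposite to the one printed (7.52% of all windows), and the longer one in B2m (3.44% of all windows). The last was TGACG followed, after 15 to 25 bases, by ATTGG, letters found in the X2 and Y boxes of MHC promoters. H2-K1, H2-D1 and B2m held the pair 20 bases apart and H2-Aa held it 21 bases apart, while 0.435% of all windows held it. In B2m the pair began 78 bases before the gene start and in H2-Aa 74 bases before it. Tap1, Psmb8 and Psmb9 held no match to the 4 motifs in these windows. The annotated starts of Tap1 and Psmb9 lie 226 bases apart on opposite strands, and their windows share 275 bases. A match is a string of letters and not a measured binding site.

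Library totals ran from 8368160 to 10862573 counts. Levels are counts per 1e6 (CPM), scaled by TMM, and 3 counts, the limit that a count of 0 allows, came to between 0.286 and 0.43 CPM for counting error only. Fn1 stood at 146, 298 and 688 CPM in FNcKO at 48 h and 16.8, 9.81 and 8.32 CPM in FNcKO at 0 h, against 1515, 528 and 979 CPM in WT at 48 h and 19, 23.1 and 15.5 CPM in WT at 0 h. The genotypes overlapped at both times, and the labels do not name the exons that the knockout removes, so Fn1 checks the labels only in part. In a combined table deposited with the series, the column named WT 0 h replicate 1 equals the separate file of FNcKO 0 h replicate 1; the separate files were used, and results are also given without both libraries. Markers of the lens epithelium, crystallins included, summed to 12237 to 82449 CPM in FNcKO at 48 h, against 98398 to 215386 CPM at 0 h, and to 14038 to 49150 CPM in WT at 48 h, against 88335 to 146662 CPM at 0 h, and were present in every library.

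At 48 h after fiber cell removal, the class I pathway stood higher in both genotypes. All 7 class I members passed the test in FNcKO and all 7 in WT (edgeR's quasi-likelihood F test, p adjusted by Benjamini-Hochberg over the 14560 genes, threshold 0.05). The 3 class II members passed in WT and missed the threshold in FNcKO. In FNcKO at 48 h against 0 h, 7 of the 10 members were therefore called higher and 0 lower, where 24.8% of all genes were called, 14.9% higher and 9.9% lower. In WT at 48 h against 0 h, 10 of 10 were called higher and 0 lower, where 32.6% of all genes were called, 19.1% higher and 13.5% lower. The median log2 fold change of the members was 1.49 in FNcKO and 1.92 in WT, beside 0.002 and 0.016 over all genes. All 7 class I members lay higher at 48 h in FNcKO without overlap between the groups, as 20.1% of all genes did, and all 10 members did so in WT, as 27.5% of all genes did. Because the libraries are bulk RNA, more cells of a type and more RNA per cell cannot be told apart. Markers of leukocytes and of vascular endothelium were also higher at 48 h in both genotypes, with values given after the class II genes, and their part in the class I changes was not tested.

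**Figure D1:**
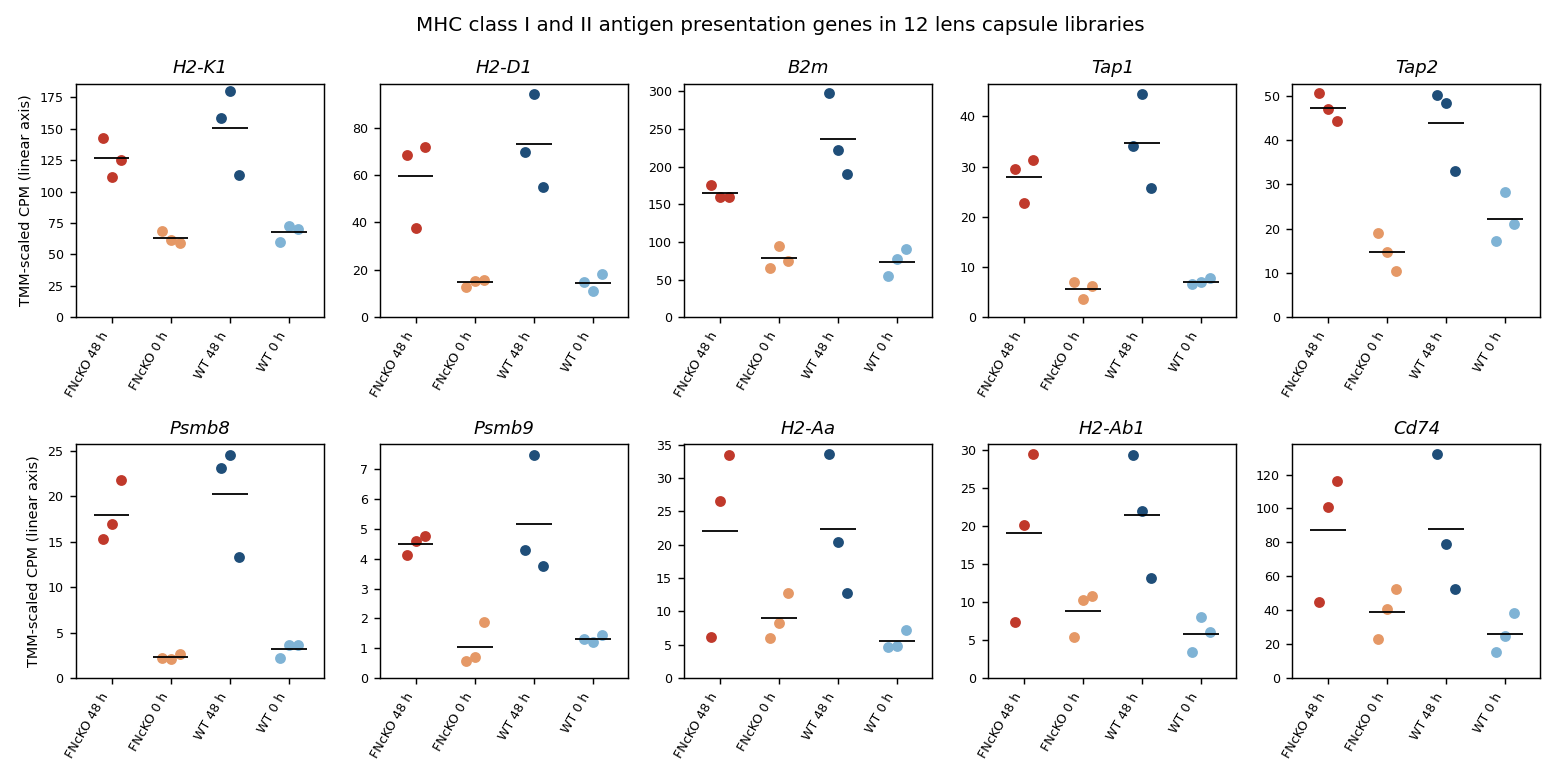
TMM-scaled counts per 1e6 (CPM) (vertical, linear axes from 0) of the 10 genes in each library; points are libraries and bars are group means of 3. The class I genes and B2m sit higher in all 48 h libraries than in the 0 h libraries of the same genotype, while 1 FNcKO 48 h library, replicate 1, sits among the 0 h libraries for H2-Aa and H2-Ab1.

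The heavy chain H2-K1 (chromosome 17, 33996012 to 34000333, mm10) stood at 143, 112 and 125 CPM in FNcKO at 48 h and at 68.4, 61.5 and 59.2 CPM in FNcKO at 0 h. In WT it stood at 159, 180 and 113 CPM at 48 h and at 59.8, 73 and 70.4 CPM at 0 h. The 0 h values of both genotypes lay in 1 narrow range, and each 48 h value lay above it. The log2 fold change was 1.00 ± 0.18 in FNcKO (approximate SE; edgeR adjusted p = 0.00156) and 1.15 ± 0.18 in WT (adjusted p = 0.000479).

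H2-D1 (chromosome 17, 35263094 to 35267497), another classical heavy chain, had a larger fold change. It reached 68.6, 37.7 and 72 CPM in FNcKO at 48 h, against 12.9, 15.4 and 15.8 CPM in FNcKO at 0 h. The WT values were 69.8, 94.4 and 55.1 CPM at 48 h and 14.7, 11 and 18.1 CPM at 0 h. The fold was 4.05 in FNcKO (log2 2.02 ± 0.28, edgeR adjusted p = 0.000315) and 5.01 in WT (log2 2.32 ± 0.28, adjusted p = 8.21e-05). Set against H2-K1 in the same library and per kilobase of the deposited gene length, H2-D1 was 0.44 ± 0.115 of H2-K1 in FNcKO at 48 h and 0.222 ± 0.0392 at 0 h. The same ratio was 0.458 ± 0.04 in WT at 48 h and 0.207 ± 0.0555 at 0 h (SD, n = 3 each), so the 48 h and 0 h ratios did not overlap in either genotype.

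Heavy chain values carry a limit of mapping. Of the 50-base stretches of the annotated transcripts, 9.63% in H2-K1 and 12.8% in H2-D1 also occur in another gene, most often H2-Q10, H2-Q1, H2-Q7 or each other, against at most 0.655% in the other 8 members. The span of H2-D1 also overlaps the H2-L entry, which held 0 to 7 counts per library. H2-Q6, H2-Q7, H2-Q8 and H2-Q9 overlap each other in pairs and were at 0 in all 12 libraries, so their 0 cannot be read as an absence of expression. Strain haplotype may also affect the mapping of reads to H2 genes, H2-Aa and H2-Ab1 included. The shared stretches were counted in reference transcripts only, so they do not measure that effect, which was not tested.

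B2m (chromosome 2, 122147687 to 122153082), the light chain shared by all class I molecules, stood at 176, 160 and 160 CPM in FNcKO at 48 h and at 65.2, 95.1 and 75.2 CPM in FNcKO at 0 h. In WT it stood at 298, 222 and 190 CPM at 48 h and at 54.5, 76.9 and 90 CPM at 0 h. The 0 h ranges of the genotypes overlapped, whereas at 48 h each FNcKO library lay below each WT library. The log2 fold change over 48 h was 1.07 ± 0.22 in FNcKO (edgeR adjusted p = 0.00341) and 1.68 ± 0.22 in WT (adjusted p = 0.000152). The difference between these changes, −0.61 ± 0.31, did not pass the test (adjusted p = 0.945, unadjusted p = 0.0667 in the edgeR fit).

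Tap1 and Tap2, the partner chains of the peptide transporter, lie beside the immunoproteasome genes on chromosome 17. Tap1 (34187556 to 34197225) stood at 29.6, 22.7 and 31.3 CPM in FNcKO at 48 h and at 7.04, 3.69 and 6.17 CPM in FNcKO at 0 h, and at 34.2, 44.5 and 25.7 CPM in WT at 48 h and 6.52, 6.94 and 7.71 CPM in WT at 0 h. Its 4.94-fold change in FNcKO and 4.93-fold change in WT were near equal (log2 2.31 ± 0.28, edgeR adjusted p = 0.000122, and log2 2.30 ± 0.27, adjusted p = 7e-05). Tap2 (34204479 to 34216321) reached 50.7, 46.9 and 44.2 CPM in FNcKO at 48 h, against 18.9, 14.8 and 10.5 CPM in FNcKO at 0 h, and 50.1, 48.3 and 33 CPM in WT at 48 h, against 17.2, 28.2 and 21.1 CPM in WT at 0 h. The 48 h levels of the genotypes lay close together and the 0 h levels overlapped, with FNcKO the lower on average.

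Tap2 changed by 1.68 ± 0.25 on the log2 scale in FNcKO (edgeR adjusted p = 0.000517) and by 0.98 ± 0.24 in WT (adjusted p = 0.0076). The difference of 0.69 ± 0.34 did not pass the test (adjusted p = 0.945, unadjusted p = 0.0626 in the edgeR fit). The ratio of Tap1 to Tap2 per length was 0.5 ± 0.0945 in FNcKO at 48 h and 0.341 ± 0.145 at 0 h, with overlapping libraries, and 0.671 ± 0.101 in WT at 48 h and 0.279 ± 0.062 at 0 h (SD, n = 3 each), with no overlap in WT.

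Of all members, Psmb8 showed the largest fold change in both genotypes. Psmb8 (chromosome 17, 34198195 to 34201454), the chymotrypsin-like subunit of the immunoproteasome, stood at 15.3, 16.9 and 21.8 CPM in FNcKO at 48 h and at 2.24, 2.08 and 2.58 CPM in FNcKO at 0 h. In WT it stood at 23.1, 24.6 and 13.3 CPM at 48 h and at 2.21, 3.57 and 3.61 CPM at 0 h. The lowest 48 h value lay well above the highest 0 h value in each genotype. The change was 7.82-fold in FNcKO (log2 2.97 ± 0.32, edgeR adjusted p = 5.27e-05) and 6.49-fold in WT (log2 2.70 ± 0.31, adjusted p = 5.48e-05).

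Psmb9 (chromosome 17, 34182099 to 34187330), the subunit that takes the place of Psmb6, was the least abundant member, with 5 to 13 counts per FNcKO 0 h library and 12 to 13 counts per WT 0 h library. It stood at 4.12, 4.59 and 4.76 CPM in FNcKO at 48 h and at 0.559, 0.693 and 1.86 CPM at 0 h, and at 4.28, 7.49 and 3.74 CPM in WT at 48 h and 1.3, 1.22 and 1.45 CPM at 0 h. The FNcKO 48 h libraries lay close together, and 1 FNcKO 0 h library, replicate 3, lay above the other two. The log2 fold change was 2.13 ± 0.50 in FNcKO (edgeR adjusted p = 0.0072) and 1.96 ± 0.48 in WT (adjusted p = 0.00724). Without FNcKO 0 h replicate 3 the FNcKO value was 2.78 (adjusted p = 0.00378).

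Psmb10, the immunoproteasome subunit that takes the place of Psmb7, rose by 1.80 ± 0.30 on the log2 scale in FNcKO (edgeR adjusted p = 0.00103) and 1.64 ± 0.30 in WT (adjusted p = 0.0012). The constitutive subunits that these 3 replace, Psmb5, Psmb6 and Psmb7, had log2 changes of 0.11, 0.10 and 0.10 in FNcKO and 0.23, 0.42 and 0.38 in WT, none of which passed the test; on the scale of total counts, Psmb6 and Psmb7 passed in WT (edgeR adjusted p = 0.0215 and 0.0274). Per length, Psmb8 was 0.35 ± 0.0282 of Psmb5 in FNcKO at 48 h and 0.0509 ± 0.0109 at 0 h, against 0.46 ± 0.137 in WT at 48 h and 0.0898 ± 0.0389 at 0 h (SD, n = 3 each). Psmb9 was 0.0913 ± 0.0054 of Psmb6 in FNcKO at 48 h and 0.0212 ± 0.00629 at 0 h, against 0.12 ± 0.0412 in WT at 48 h and 0.043 ± 0.00926 at 0 h. The ratio of Psmb10 to Psmb7 was 0.205 ± 0.0214 and 0.0619 ± 0.00819 in FNcKO at 48 h and 0 h, and 0.223 ± 0.0712 and 0.0923 ± 0.00815 in WT at 48 h and 0 h. All 3 ratios were higher in each 48 h library than in any 0 h library of the same genotype, and as ratios within a library they do not depend on how libraries are scaled. None of the 3 immunoproteasome subunits reached the level of its counterpart in any library.

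**Figure D2:**
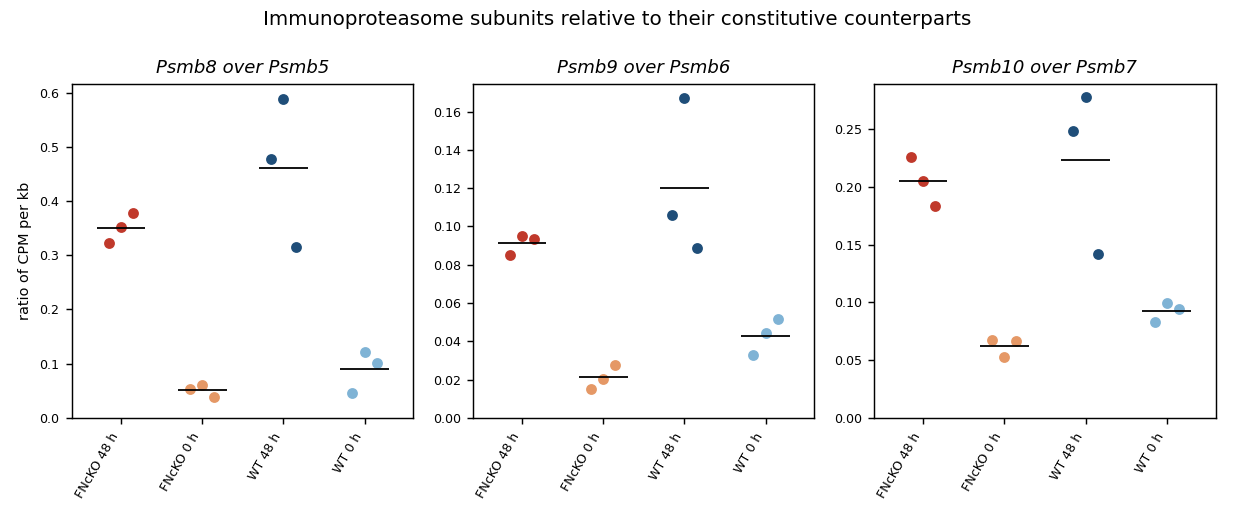
Ratio of CPM per kilobase of an immunoproteasome subunit to that of the constitutive subunit it replaces (vertical, linear axes from 0), by library; bars are means of 3. Psmb8 over Psmb5 lies between 0.315 and 0.589 at 48 h and between 0.0388 and 0.121 at 0 h.

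The wider class I pathway moved in part. Of 10 other genes of peptide generation and loading, 5 rose and 0 fell in FNcKO and 6 rose and 0 fell in WT, with median log2 changes of 0.53 and 0.52. Nlrc5, the transactivator of class I genes, rose most, by 3.44 ± 0.56 in FNcKO (edgeR adjusted p = 0.000917) and 2.62 ± 0.50 in WT (adjusted p = 0.00169). It stood at 8.24, 8.52 and 10 CPM in FNcKO at 48 h and 0.112, 1.73 and 0.574 CPM at 0 h, and at 16.9, 12.5 and 14.7 CPM in WT at 48 h and 3.01, 2.75 and 1.33 CPM at 0 h. In FNcKO 0 h replicate 1, its value lay under the 0.335 CPM that 3 counts came to. The size of its change in FNcKO is therefore uncertain. Tapbp (tapasin, which holds empty class I molecules at the transporter) and the chaperone Calr rose in both genotypes, Tapbp by 0.75 ± 0.16 in FNcKO and 0.48 ± 0.16 in WT on the log2 scale. The Tapbp call in WT was lost without both 0 h replicate 1 libraries (edgeR adjusted p = 0.106). The proteasome activator genes gave log2 changes of −0.08 in FNcKO and 0.11 in WT for Psme1, with no call, and for Psme2 of 0.40 in FNcKO, with no call, and 0.57 in WT (adjusted p = 0.0213).

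Of 22 other class I chains, 9 passed the filter on low counts, and of these 3 rose and 1 fell in FNcKO and 4 rose and 0 fell in WT. Without both 0 h replicate 1 libraries 2 rose in each genotype, with H2-Q5 among the calls lost in WT (edgeR adjusted p = 0.103). H2-T23, which encodes the nonclassical chain Qa-1, reached 8.77, 11.5 and 6.56 CPM in FNcKO at 48 h, against 0.783, 1.96 and 1.58 CPM at 0 h, and 9.52, 10.5 and 9.13 CPM in WT at 48 h, against 1, 3.77 and 2.29 CPM at 0 h. Its span overlaps the A930015D03Rik entry, which held 16 to 65 counts per library. Stretches shared with other genes were counted for the members only, so not for H2-T23 or H2-Q4. H2-Q4 rose by 1.59 ± 0.19 in FNcKO (edgeR adjusted p = 0.000125) and 1.18 ± 0.19 in WT (adjusted p = 0.000515) on the log2 scale. Mr1, which presents vitamin B metabolites, was the 1 gene that fell in FNcKO (log2 −0.65 ± 0.18, adjusted p = 0.0195), a call lost without both 0 h replicate 1 libraries (adjusted p = 0.108) and on the scale of total counts (adjusted p = 0.208). Of 16 constitutive proteasome genes, Psmb5, Psmb6 and Psmb7 included, 2 rose in FNcKO and 9 rose in WT, with median log2 changes of 0.24 and 0.56. Of all genes, 14.9% were higher in FNcKO and 19.1% in WT, so the FNcKO share is near that of all genes. For the difference between the FNcKO and WT changes, 0 of the 16 were called, as were 0% of all genes. The FNcKO count was 0 with DESeq2 size factors, 0 without both 0 h replicate 1 libraries and 7 on the scale of total counts, and the WT count was 14 on that last scale.

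**Figure D3:**
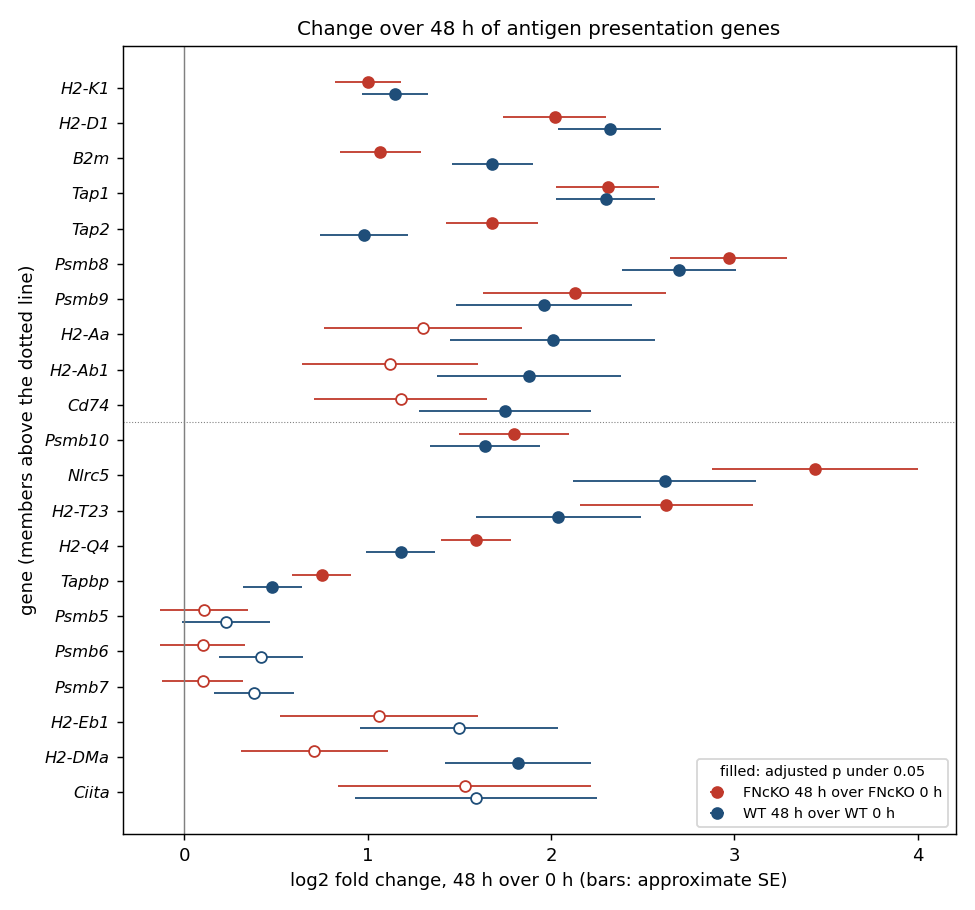
Log2 fold change at 48 h over 0 h (horizontal) with its approximate SE for the 10 members and 11 other genes of the pathways, in FNcKO (red) and WT (blue); filled points passed the test. Class I members are filled in both genotypes, and class II members are filled in WT and open in FNcKO.

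The class II members were higher at 48 h in WT, while in FNcKO their 48 h and 0 h libraries overlapped. Their summed level at 48 h was 128 ± 62.8 CPM in FNcKO and 131 ± 58.7 CPM in WT, a like spread. At 0 h the sum was 56.4 ± 20.9 CPM in FNcKO and 37.5 ± 14.2 CPM in WT (SD, n = 3 each). H2-Aa (chromosome 17, 34282751 to 34287771) stood at 6.13, 26.5 and 33.4 CPM in FNcKO at 48 h and at 5.93, 8.19 and 12.8 CPM in FNcKO at 0 h. In WT it stood at 33.6, 20.4 and 12.8 CPM at 48 h and at 4.61, 4.79 and 7.23 CPM at 0 h. FNcKO 48 h replicate 1 lay at the 0 h level while the other two lay above all 0 h libraries. The log2 fold change was 1.30 ± 0.54 in FNcKO (edgeR adjusted p = 0.0999) and 2.01 ± 0.56 in WT (adjusted p = 0.0166).

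H2-Ab1 (chromosome 17, 34263227 to 34269418), the partner chain, stood at 7.4, 20.1 and 29.4 CPM in FNcKO at 48 h and at 5.37, 10.2 and 10.8 CPM in FNcKO at 0 h, and at 29.3, 21.9 and 13.1 CPM in WT at 48 h and 3.41, 8.06 and 6.02 CPM in WT at 0 h. Replicate 1 was again the low FNcKO 48 h library. The change was 1.12 ± 0.48 on the log2 scale in FNcKO (edgeR adjusted p = 0.113) and 1.88 ± 0.50 in WT (adjusted p = 0.0125). Cd74 (chromosome 18, 60803849 to 60812652), the most abundant class II member per length, stood at 44.6, 101 and 116 CPM in FNcKO at 48 h and at 22.9, 40.9 and 52.2 CPM in FNcKO at 0 h. In WT it stood at 132, 79.1 and 52.4 CPM at 48 h and at 15, 24.9 and 38.3 CPM at 0 h. Its change was 1.18 ± 0.47 on the log2 scale in FNcKO (adjusted p = 0.0865) and 1.75 ± 0.47 in WT (adjusted p = 0.0157).

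The class II calls rested on single libraries, except that of H2-Ab1 in WT, which held whichever single library was left out. Without FNcKO 48 h replicate 1, all 10 members passed in FNcKO, with log2 changes of 1.75 for H2-Aa (edgeR adjusted p = 0.00588), 1.50 for H2-Ab1 (adjusted p = 0.0164) and 1.50 for Cd74 (adjusted p = 0.0291). In WT, H2-Aa and Cd74 lost their calls without WT 0 h replicate 1 (adjusted p = 0.0592 and 0.0551), without WT 0 h replicate 2 (0.0642 and 0.0541) and without WT 48 h replicate 1 (0.0666 and 0.07). Without both 0 h replicate 1 libraries, H2-Aa and H2-Ab1 lost theirs (adjusted p = 0.0671 and 0.0513), leaving 8 members called in WT and 7 in FNcKO. The difference of the FNcKO and WT changes did not pass for H2-Aa (−0.70 ± 0.76, adjusted p = 0.947), H2-Ab1 (−0.76 ± 0.68, adjusted p = 0.945) or Cd74 (−0.57 ± 0.65, adjusted p = 0.947), so the genotypes were not shown to differ in class II.

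The proportion of H2-Aa to Cd74 varied little in WT at 48 h and more in the other groups. H2-Aa per length was 0.338, 0.341 and 0.322 of Cd74 in WT at 48 h and 0.406, 0.255 and 0.25 in WT at 0 h. In FNcKO at 48 h it was 0.182 in replicate 1 and 0.346 and 0.381 in the other two, and in FNcKO at 0 h it was 0.342, 0.265 and 0.324. In FNcKO 48 h replicate 1, then, H2-Aa was low relative to Cd74 as well as in level, and H2-Eb1, the other beta chain, was 0.0824 of Cd74 there, against 0.178 and 0.145 in the other FNcKO 48 h libraries. H2-Eb1 itself stood at 4.33, 21.3 and 19.9 CPM in FNcKO at 48 h and 3.91, 7.27 and 10.8 CPM at 0 h, and at 22.7, 16.8 and 10.6 CPM in WT at 48 h and 3.91, 6.12 and 7.71 CPM at 0 h. It missed the threshold in FNcKO (log2 1.06 ± 0.54, edgeR adjusted p = 0.174) and, narrowly, in WT (log2 1.50 ± 0.54, adjusted p = 0.0511), and it passed in both without FNcKO 48 h replicate 1 (adjusted p = 0.0167 in FNcKO and 0.00946 in WT). H2-Ea-ps, the alpha chain entry that would pair with it and is annotated as a pseudogene, was at 0 in all 12 libraries.

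Of 17 other class II genes found, 13 were tested, and 2 rose and 1 fell in FNcKO while 4 rose and 0 fell in WT. The FNcKO share is near the 14.9% of all genes that were higher. On the scale of total counts 7 rose in WT, and without both 0 h replicate 1 libraries 1 rose in FNcKO, where the call of the lysosomal protease Lgmn was lost (edgeR adjusted p = 0.146). Ctss (cathepsin S, which trims the invariant chain) rose in both genotypes, to 21.4, 29.9 and 43.5 CPM in FNcKO at 48 h, against 2.91, 8.08 and 10.9 CPM at 0 h, and to 78.4, 78.1 and 33.8 CPM in WT at 48 h, against 8.03, 10.2 and 10.8 CPM at 0 h. The log2 change of Ctss was 2.13 ± 0.45 in FNcKO (edgeR adjusted p = 0.00522) and 2.71 ± 0.45 in WT (adjusted p = 0.000901). H2-DMa, a chain of the peptide exchange factor H2-M, had a log2 change of 0.71 ± 0.40 in FNcKO that did not pass (adjusted p = 0.212) and rose by 1.82 ± 0.40 in WT (adjusted p = 0.00401); the difference, −1.11 ± 0.56, did not pass either (adjusted p = 0.945). H2-DMb1, the other chain, did not pass in FNcKO (0.21, adjusted p = 0.67) or in WT (0.80, adjusted p = 0.0573). Ciita, the master regulator of class II genes, had few counts, with 8, 16 and 33 counts in FNcKO at 48 h and 4, 8 and 5 at 0 h, and 55, 19 and 13 counts in WT at 48 h and 9, 9 and 8 at 0 h. It did not pass in FNcKO (log2 1.53 ± 0.69, adjusted p = 0.123) or in WT (1.59 ± 0.66, adjusted p = 0.0789). Rfxap, a subunit of the RFX complex, was the 1 gene of the list that fell in FNcKO (−0.90 ± 0.21, adjusted p = 0.0082).

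Leukocyte markers moved in the same libraries. The summed level of 4 general leukocyte markers (Ptprc, Coro1a, Laptm5 and Itgb2) was 47.4, 78.6 and 135 CPM in FNcKO at 48 h and 6.71, 14.8 and 13.6 CPM at 0 h, against 279, 128 and 86.7 CPM in WT at 48 h and 10.9, 19.7 and 28.4 CPM at 0 h. The sum of 15 macrophage and monocyte markers was 198, 291 and 427 CPM in FNcKO at 48 h and 83.9, 124 and 140 CPM at 0 h, against 696, 485 and 298 CPM in WT at 48 h and 99.9, 179 and 202 CPM at 0 h. Within each 48 h group, the libraries took the same order in Cd74, H2-Aa, H2-Ab1 and both sums, with replicate 1 lowest in FNcKO and highest in WT. Of the class I members, Psmb8 and Psmb9 took that order in FNcKO, and B2m and Tap2 took it in WT. In FNcKO 48 h replicate 1, both sums were lowest and the lens epithelial sum was the highest of the group, at 82449 CPM. H2-K1, B2m and Tap2 were the highest of their group there. In FNcKO 48 h replicate 3, both sums were highest and the lens epithelial sum was lowest, at 12237 CPM. H2-D1, Tap1, Psmb8 and Psmb9 were the highest of their group in that library. The cells that the class I RNA came from were not tested. Of the macrophage markers, 7 rose and 1, Cx3cr1, fell in FNcKO (log2 −1.53 ± 0.44, edgeR adjusted p = 0.0223), and 8 rose and 0 fell in WT; Lyz2 rose 7.19-fold in FNcKO and 7.2-fold in WT, while Csf1r did not pass in FNcKO (log2 0.22, edgeR adjusted p = 0.766) or WT (0.61, adjusted p = 0.314). Without both 0 h replicate 1 libraries, 4 rose and 1 fell in FNcKO and 7 rose in WT. On the scale of total counts, 8 rose and 0 fell in FNcKO. Without FNcKO 48 h replicate 1, 7 rose and 0 fell in FNcKO, so the fall of Cx3cr1 was not called in either setting.

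The sum of 12 dendritic cell markers ran from 14.5 to 33.5 CPM in FNcKO at 48 h and 3.58 to 7.39 CPM at 0 h, and from 22.5 to 66.7 CPM in WT at 48 h and 5.02 to 8.07 CPM at 0 h. Of its 7 tested genes, 3 rose and 0 fell in each genotype, and these were Cd80, Itgax and Cd40. The remaining tested genes of the list, Cd86 included, did not pass in either genotype. The Cd40 call in WT was lost without both 0 h replicate 1 libraries (edgeR adjusted p = 0.094). Without FNcKO 48 h replicate 1, 5 of 10 tested rose in WT. The B cell markers Cd79a, Cd79b, Ms4a1 and Pax5 held 0 to 4 counts per library, and Blnk, an adaptor protein of B cell signalling, stood between 9.09 and 23.2 CPM in FNcKO at 48 h and 6.45 and 7.71 CPM at 0 h, and between 13.4 and 14.7 CPM in WT at 48 h and 7.52 and 10.3 CPM at 0 h. The 10 T and NK cell markers summed to at most 3.14 CPM in any library, and none of them passed the filter. That highest sum was in WT 48 h replicate 1, which also had the highest Cd74 and H2-Aa levels. In FNcKO 48 h replicate 3, where H2-Aa was nearly as high, the sum was 1.16 CPM.

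Markers of neutrophils and of vascular endothelium, whose cells also carry class I molecules, were higher at 48 h as well. The sum of 7 neutrophil markers was 45.2, 41.5 and 111 CPM in FNcKO at 48 h and 3.8, 4.27 and 4.73 CPM at 0 h, and 347, 73.2 and 61.3 CPM in WT at 48 h and 4.82, 10.2 and 9.04 CPM at 0 h. Of 5 tested neutrophil genes, 4 rose in FNcKO and 5 in WT, and 0 fell in either. S100a8, an abundant neutrophil calcium-binding protein, had 57, 18 and 124 counts in FNcKO at 48 h and 2, 0 and 0 counts at 0 h, and 330, 91 and 75 counts in WT at 48 h and 1, 1 and 2 counts at 0 h. It passed in FNcKO (edgeR adjusted p = 0.00172) and in WT (adjusted p = 0.000443), and since the 0 h counts lie under the floor of 3 no fold is given. The sum of 10 endothelial markers was 60.8, 36.3 and 80.5 CPM in FNcKO at 48 h and 13.5, 29.8 and 12.8 CPM at 0 h, and 58.5, 141 and 70.9 CPM in WT at 48 h and 45.4, 54.5 and 21.3 CPM at 0 h. In each genotype 6 endothelial markers rose and 0 fell, among them Pecam1 and Cdh5, and 3 rose in each without both 0 h replicate 1 libraries. The 48 h and 0 h sums of both lists did not overlap in either genotype. The part of any of these cell types in the class I and class II changes was not tested.

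Relative to the macrophage sum, Cd74 lay higher in FNcKO than in WT at both times. H2-Aa and H2-Ab1 did so at 0 h and overlapped at 48 h. Cd74 itself was 0.997-fold of WT in FNcKO at 48 h and 1.48-fold at 0 h, with no call. The macrophage sum was lower on average in FNcKO, at 305 ± 115 CPM against 493 ± 199 CPM in WT at 48 h. At 0 h that sum was 116 ± 28.9 CPM in FNcKO against 160 ± 53.3 CPM in WT (SD, n = 3 each). The ratio of Cd74 to that sum was 0.225, 0.349 and 0.272 in FNcKO at 48 h, against 0.189, 0.163 and 0.176 in WT at 48 h, and 0.273, 0.329 and 0.373 in FNcKO at 0 h, against 0.151, 0.139 and 0.19 in WT at 0 h. The Cd74 ratios of the genotypes did not overlap at either time. These ratios were formed after the values were seen and are given without a test. At 48 h the H2-Aa ratio was 0.031, 0.0913 and 0.0783 in FNcKO against 0.0483, 0.0421 and 0.0429 in WT. The H2-Ab1 ratio at 48 h was 0.0374, 0.0691 and 0.0689 in FNcKO against 0.0421, 0.0451 and 0.0439 in WT. At 0 h the H2-Aa ratio was 0.0707, 0.066 and 0.0913 in FNcKO against 0.0462, 0.0268 and 0.0359 in WT. The H2-Ab1 ratio at 0 h was 0.064, 0.0818 and 0.0769 in FNcKO against 0.0341, 0.0451 and 0.0299 in WT. Over time, the outcome depended on the marker list. Over the macrophage sum, the 48 h and 0 h ratios of Cd74 overlapped within each genotype. Over the sum of the 4 general leukocyte markers, Cd74 was lower at 48 h without overlap, at 0.94, 1.29 and 0.859 in FNcKO at 48 h and 3.42, 2.77 and 3.83 at 0 h, and at 0.472, 0.619 and 0.604 in WT at 48 h and 1.38, 1.26 and 1.35 at 0 h.

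**Figure D4:**
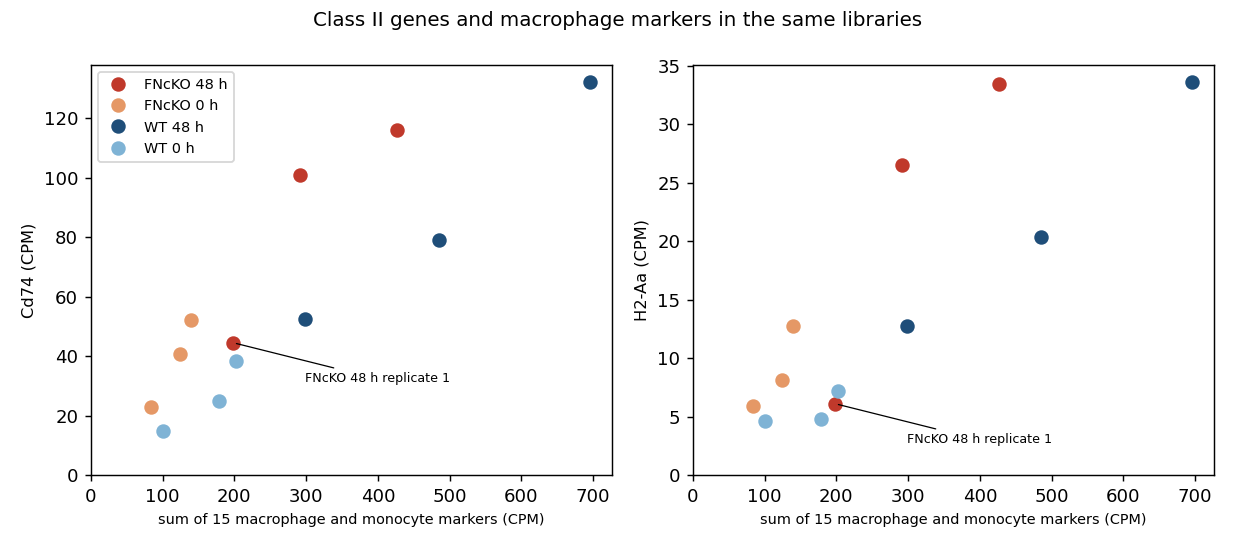
Cd74 (left) and H2-Aa (right) in CPM against the summed CPM of 15 macrophage and monocyte markers, 1 point per library, linear axes from 0. FNcKO 48 h replicate 1, with a marker sum of 198 CPM, lies beside the 0 h libraries, and WT 48 h replicate 1, with 696 CPM, lies farthest right.

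Interferon signalling genes rose in both genotypes, while neither interferon transcript of the list was detected. Of 18 listed genes, 16 were tested, and 10 rose and 0 fell in FNcKO while 13 rose and 0 fell in WT. Irf1, a transcription factor that acts on class I genes, reached 34.1, 34.7 and 35.3 CPM in FNcKO at 48 h, against 12.2, 12.9 and 15.5 CPM at 0 h, and 37.4, 40.7 and 34.5 CPM in WT at 48 h, against 13.4, 16 and 11.6 CPM at 0 h. Its log2 change was 1.36 ± 0.18 in FNcKO (edgeR adjusted p = 0.000232) and 1.46 ± 0.18 in WT (adjusted p = 8.69e-05), with almost no spread among the FNcKO 48 h libraries. Irf7 rose 7.27-fold in FNcKO and 8.32-fold in WT, Irf9 rose 2.61-fold in FNcKO and 2.03-fold in WT, and Socs3, a feedback inhibitor of cytokine signalling, rose 22-fold in FNcKO and 24.4-fold in WT. Irf8, a factor of the myeloid lineage, rose by 1.33 ± 0.30 in FNcKO (adjusted p = 0.00562) and 1.18 ± 0.29 in WT (adjusted p = 0.0081) on the log2 scale. Ifng and Ifnb1 had 0 counts in all 12 libraries, which allows up to 0.286 to 0.43 CPM per library, so their transcripts were not detectable at this depth.

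Between the genotypes no member passed. In FNcKO against WT at 48 h, 0 of 10 members were called by edgeR and 0 by DESeq2, where 0.24% of all genes were called by edgeR, and 1 member had an unadjusted p under 0.05. That member was B2m, at −0.52 ± 0.22 on the log2 scale (edgeR adjusted p = 0.848, unadjusted p = 0.0306). It was the single member whose FNcKO and WT libraries did not overlap at 48 h. Of all genes, 5.25% lay lower in FNcKO without overlap. The share without overlap in either direction is larger and is not given here. The other 9 members ranged from −0.32 for Tap1 to 0.11 for Tap2. Among genes outside the 10, Nlrc5 also lay lower in every FNcKO 48 h library than in any WT 48 h library, with a log2 difference of −0.72 ± 0.46 that did not pass (adjusted p = 1).

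In FNcKO against WT at 0 h, 0 of 10 members were called by edgeR and 0 by DESeq2, where 0.144% of all genes were called by edgeR, and the groups of all 10 overlapped. One member, Tap2, had an unadjusted p under 0.05 (log2 −0.58 ± 0.25, edgeR adjusted p = 0.42, unadjusted p = 0.0333). All 3 class II members lay between 0.57 and 0.69 on the log2 scale. For the difference of the 48 h responses, 0 of 10 members were called by edgeR and 0 by DESeq2, where 0% of all genes were called by edgeR, 735 of them had an unadjusted p under 0.05, and no member did. These comparisons share libraries with each other and with the comparisons over time. The approximate SEs of the members at 48 h ran from 0.18 for H2-K1 to 0.52 for H2-Aa, and a p that misses the threshold does not show that the genotypes were alike.

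Ordered by level per kilobase of the deposited gene length at 48 h, the members took nearly the same order in both genotypes, with Tap2 and H2-Ab1 exchanged. In FNcKO at 48 h, B2m led with 192 ± 10.8 CPM per kb, before H2-K1 with 76.9 ± 9.27, Cd74 with 61.8 ± 26.7, H2-D1 with 34.2 ± 10.9 and H2-Aa with 20.6 ± 13.3 (SD, n = 3 each). Tap2 followed with 19 ± 1.32 CPM per kb, H2-Ab1 with 15.9 ± 9.26, Psmb8 with 14.7 ± 2.75, Tap1 with 9.45 ± 1.54 and Psmb9 with 5.57 ± 0.409. In WT at 48 h, B2m led with 276 ± 64.9 CPM per kb, before H2-K1 with 91.5 ± 20.7, Cd74 with 62 ± 28.4 and H2-D1 with 42.1 ± 11.4. H2-K1 and Cd74 overlapped in both genotypes at 48 h, as did Cd74 and H2-D1, whereas B2m lay above every other member in each library.

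Genes outside the members were ranked by their likeness to 3 of the members over the 12 libraries. Likeness was the root mean square difference of log2 (CPM + 1), each gene centred on its own mean. Values of 14551 genes were used. The members themselves were not ranked, so another member may lie nearer than the genes named. For Cd74 the nearest ranked genes were H2-Eb1 (0.329), Tbxas1 (0.336), Ethe1 (0.347), Arhgap25 (0.348) and C1s1 (0.388). For H2-K1 they were Tmem176b (0.178), Trim25 (0.183), Efemp2 (0.188), Stk40 (0.193) and Ms4a8a (0.194). For Tap1 they were Mvp (0.239), Zfp36 (0.245), Myd88 (0.277), Loxl4 (0.294) and Napsa (0.306). None of the 5 genes named for one of these members was among those named for another.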

How the data were processed

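The authors deposited, per the file headers, a whole-number read count per gene and library, with an RPKM value beside it that was not used further. Per the submitters' processing notes, which give names in no order, the authors' tools included edgeR 3.16.5, HTSeq 0.6.1p1, TopHat2 2.1.0, Trim Galore 0.4.4, bedtools 2.17 and SAMtools 1.4 and the build was mm10. The labels' protocols name both a TruSeq RNA kit with no mention of strand and what appears to be a stranded TruSeq kit, so whether strand was kept is unclear; neither the counting's strand setting, nor the handling of multiply mapping reads, nor the annotation is stated there.

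The fit used edgeR 4.0.16 (R 4.3.3): filterByExpr, TMM scaling, robust quasi-likelihood dispersions and 4 group means over 12 libraries, F tests, and Benjamini-Hochberg adjustment over 14560 genes at 0.05. It was also run on simulated data, whose spread followed the trend over genes and not each gene's own. That outcome is not reported here and no result rests on it. The approximate SE of a log2 fold change is its size over the square root of F. Levels per kilobase use the deposited gene length. Alternatives were DESeq2 1.42.0, other scalings, no filter, a replicate block, the compared groups alone, and leaving out libraries. The design text describes the 3 libraries of a group as a biological triplicate.

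Besides the members, the genes named were up to 4 with the lowest adjusted p in each list and a set named for their roles; a few more are named for their libraries' values. Members, lists and motifs were chosen with earlier results of these data known. Some genes of the lists are not reported here.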

Additional observations from a re-analysis of the deposited data

How the results depend on the processing

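The number of members called stayed within 1.5 times its reported value under every alternative run: 7 to 10 of 10 in FNcKO over time, 8 to 10 in WT over time, and 0 in each genotype comparison and in the difference of the responses. The 7 class I members kept their direction and their calls in both comparisons over time under all 19 alternatives. In FNcKO over time the class II members gained calls on the scale of total counts (H2-Aa adjusted p = 0.0394, Cd74 0.0302) and with DESeq2 (H2-Aa 0.0498, Cd74 0.0335). Total counts as the scale moved the median log2 change of all genes to 0.29 in FNcKO and 0.23 in WT over time, and to −0.15 between the genotypes at 0 h. Of the calls, 82.4% were then higher in FNcKO over time, against 60.1% with TMM, and 76.3% in WT, against 58.5%. On this scale Psme2 in FNcKO (adjusted p = 0.00595) and H2-DMb1 in WT (0.0162) also passed, as did H2-Eb1 in WT.

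No genotype difference in a member was called under any alternative, and small values changed sign. Leaving out single libraries, the log2 differences at 48 h ran from −0.06 to 0.22 for Tap2, −0.39 to 0.16 for Psmb9, −0.45 to 0.43 for H2-Aa and −0.64 to 0.21 for H2-Ab1. At 0 h they ran from −0.17 to 0.19 for H2-D1 and −0.09 to 0.26 for B2m, with −0.15 and −0.07 on the scale of total counts and −0.02 for H2-D1 with the compared groups alone. For the difference of the responses, Psmb9 ran from −0.13 to 0.84 and was −0.12 without both 0 h replicate 1 libraries. The cause was not tested. The compared groups alone give no other fit for the difference of the responses.

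The replicate numbers did not pair the samples: correlations of same-numbered deviations ran from −0.47 to 0.29, and in no comparison did all 6 samples correlate best with their own number (0 to 4 did). With the number as a replicate block, 7 members were called in FNcKO over time, 10 in WT over time and 0 in the other comparisons. The low counts of Psmb9, Ciita and Nlrc5 at 0 h limit what these data resolve.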
